A study of Caenorhabditis elegans with 12 samples.

Results

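The effect of losing *daf-16* was followed in cells of the proximal somatic gonad (PSG) of *C. elegans* hermaphrodites on day 1 of adulthood (D1), in 6 of the 12 samples of the series. Strain QIN9, *daf-16(0); daf-2(rf)*, is a double mutant that carries the null allele *daf-16(mu86)* together with *daf-2(e1370)*. It was set against *daf-2(rf)*, which carries *daf-2(e1370)* alone (strain QIN7). Both strains hold the same single-copy insertion *lsaSi1*, in which the *fos-1a* promoter drives GFP, with *unc-119(+)* as its selection marker. Each group had 3 biological replicates. Each replicate was a pool of many synchronized animals whose dissociated GFP+ cells were collected by FACS, so a sample is an average over all cells sorted. Each genotype is 1 strain, without a wild-type *daf-2* background beside it, and any other difference between the 2 strains cannot be told apart from the loss of *daf-16*. Genes were taken in where the 3 replicates of 1 group, or of both, each had more than 10 reads, which kept 6430 of the 46687 genes in the table. The same genotypes on D7 enter only where the D1 difference is set beside the D7 difference.

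DAF-16 is the worm's FOXO transcription factor. When the insulin/IGF-1 receptor DAF-2 is active, the kinases PDK-1, AKT-1 and AKT-2 lead to the phosphorylation of DAF-16, which then stays in the cytoplasm. When DAF-2 function is reduced, DAF-16 enters the nucleus and changes the expression of stress resistance, metabolic and antimicrobial genes. The sorted PSG cells come from the spermatheca, a contractile pouch where oocytes are fertilized, and the uterus, where embryos are held, so they lie beside oocytes, sperm and embryos.

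Between 6183054 and 14831720 reads per D1 library were counted on genes, and the level of each gene is given in CPM, read counts scaled to a common library size with TMM factors, which lay between 0.584 and 1.66. The library of *daf-16(0); daf-2(rf)* replicate 1 was the shallowest and stood apart from the other 5, with 4396 genes above 10 reads, against 6246 to 7696 genes in the others. One read was worth 0.256 CPM in it and at most 0.116 CPM in the others. Of the genes called higher below, its level was the highest of the 3 double mutant samples for 102 of 145, and of those called lower it was the lowest for 62 of 81. A list of 12 spermathecal and uterine genes was looked at, all of which had reads. So had all 20 genes of an intestine list and all 18 of a neuron list, so having reads does not identify the cells. The summed level of the spermathecal and uterine genes was 912, 786 and 1350 CPM in the double mutant, against 1332, 1335 and 1393 CPM in *daf-2(rf)*, so the groups overlapped. In replicate 1 of the double mutant the intestine sum was higher, at 1498 CPM. *fos-1*, the gene whose promoter drives the GFP, was at 98.4, 66.4 and 228 CPM in the double mutant and at 189, 253 and 294 CPM in *daf-2(rf)*. With a log2 fold change of -0.91 it was not called (edgeR adjusted p = 0.313).

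*daf-16* itself had 5.11, 3.42 and 12.26 CPM in the double mutant, against 26.9, 24.8 and 22.98 CPM in *daf-2(rf)*. The groups did not overlap, and the log2 fold change was -1.84 ± 0.49 (SE, n = 3 each), which missed the threshold (edgeR adjusted p = 0.0706). Reads over the whole gene were counted, so reads outside the deleted part are included. *daf-2*, whose transcript is made in both groups, was at 16.9, 6.91 and 18.5 CPM in the double mutant and at 14.7, 11.8 and 13.5 CPM in *daf-2(rf)*. The log2 fold change of 0.07, which was not called, changed sign with the filter and with the samples used.

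Calls required a Benjamini-Hochberg adjusted p under 0.05 in edgeR's quasi-likelihood test and a log2 fold change of 1 or more in size, where a positive value means a higher level in *daf-16(0); daf-2(rf)*. Among the 6430 genes, 226 (3.51%) met both limits, 145 of them with higher (2.26%) and 81 with lower levels (1.26%) in the double mutant, and 1601 genes had an unadjusted p under 0.05. The fitted changes of the called genes started at 1.90 above and -1.73 below zero, so smaller changes were not called at this number of replicates. In no called gene did the 2 groups overlap, but 1024 of all genes tested (15.9%) did not overlap with higher levels in the double mutant and 1047 (16.3%) with lower levels. The genes called higher were mostly low in *daf-2(rf)*, with a median of 0.864 CPM there and of 7.88 CPM in the double mutant. Genes called lower had a median of 1.75 CPM in the double mutant and of 11.4 CPM in *daf-2(rf)*. The genes called higher were also short, with a median length of 1031 bases, against 1456 bases for those called lower and 1571.5 bases for all genes tested.

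**Figure D1:**
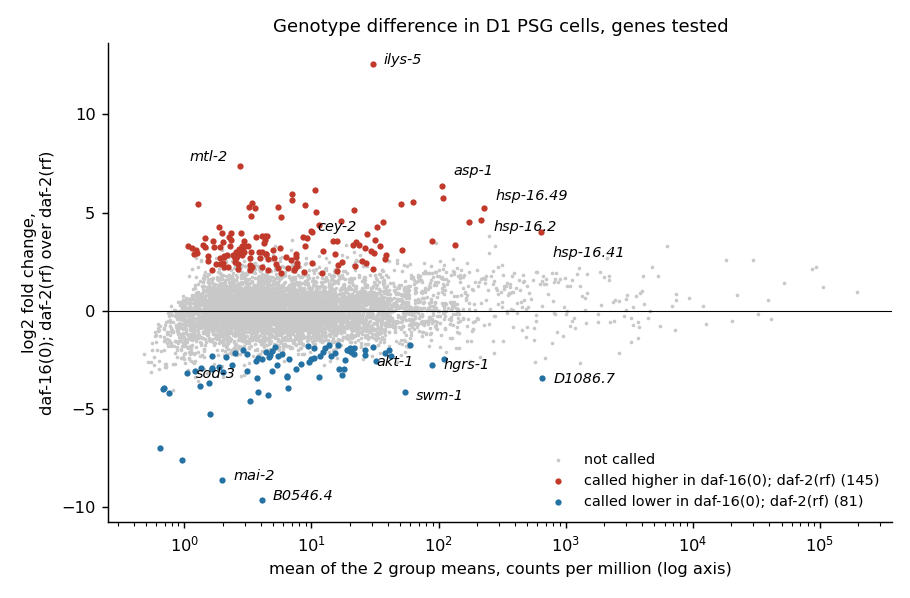
Each point is 1 of the 6430 genes tested, with the mean of both group means in CPM on a log axis and the log2 fold change of *daf-16(0); daf-2(rf)* over *daf-2(rf)* on the other axis. The 145 genes called higher lie above 1.90 and the 81 called lower lie below -1.73, and the outermost points (*ilys-5*, *mai-2*, *B0546.4*) have 0 reads in all samples of 1 group, so that their fitted values are no bounds.

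The calls rested on all 6 libraries together. With 1 *daf-16(0); daf-2(rf)* library left out, 140 (without replicate 1), 200 (replicate 2) and 99 (replicate 3) of the 226 genes were still called. With 1 *daf-2(rf)* library left out, 16 (without replicate 1), 6 (replicate 2) and 2 (replicate 3) were. Without replicate 1 of the double mutant, the values of 50 of the 226 genes moved by more than 1.5 times, and the largest shift on the log2 scale was -2.51 (*nlp-2*). The sign of all 226 and an unadjusted p under 0.05 were kept in each of these 6 fits. The 2 genes called in all 6 were *cpr-4*, a cathepsin B-like protease, and *B0546.4*. Of the genes named as called here, *F46A8.7*, *nlp-2*, *vit-1*, *asp-3*, *act-5*, *clec-65*, *lys-1*, *puf-11*, *sbt-1*, *spp-16*, *sygl-1*, *rpl-11.1*, *nos-2*, *clec-91*, *cyb-3*, *elo-2*, *oma-2*, *ifb-2*, *pgl-1*, *far-1*, *rnr-2* and *mup-2* were no longer called higher without replicate 1 of the double mutant, with edgeR adjusted p between 0.0530 (*asp-3*) and 0.0831 (*nos-2*). *C25E10.8*, *unc-2*, *dod-6*, *tag-77*, *hgrs-1*, *ets-10* and *D1086.7* were no longer called lower without it, with edgeR adjusted p between 0.0513 (*C25E10.8*) and 0.0783 (*unc-2*).

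Proteases of the lysosome and gut lumen made up the list with the largest share of calls among those described here. Of 12 cathepsin and aspartyl protease genes tested, 9 were called higher and none lower, with a median log2 fold change of 3.92, against 0.02 over all genes tested. *asp-1*, an aspartyl protease of the intestine, was at 501, 77.8 and 57.4 CPM in the double mutant, against 1.38, 4.81 and 1.58 CPM in *daf-2(rf)*. Replicate 1 of the double mutant was by far the highest. The groups did not overlap, which holds for all 226 called genes. The log2 fold change was 6.35 ± 1.03 (edgeR adjusted p = 0.0202), and 4.66 without replicate 1 of the double mutant (edgeR adjusted p = 0.017). *cpr-4* was at 18.9, 12.18 and 10.8 CPM in the double mutant, against 0.153, 0.406 and 0.102 CPM in *daf-2(rf)*, where it had between 2 and 6 reads. Its samples were close together within each group, and its adjusted p of 0.00813 was the lowest in the edgeR fit, with a log2 fold change of 5.94 ± 0.60.

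The other called proteases were *asp-2*, *asp-3*, *asp-5* and *asp-6*, and the cathepsins *cpr-1*, *cpr-5* and *cpl-1*, with log2 fold changes between 2.86 and 6.14. *asp-3* is a lysosomal aspartyl protease with a role in necrotic cell death, and it was at 326, 80.6 and 84.6 CPM in the double mutant, against 4.98, 23.8 and 12.4 CPM in *daf-2(rf)*. The 3 members without a call, *asp-4*, *cpz-1* and *cpr-6*, had log2 fold changes of 1.22, 1.09 and 1.05. Replicate 1 of the double mutant had the highest level for all 9 called members. Without it the log2 fold changes of *asp-2*, *asp-3*, *asp-5*, *asp-6*, *cpr-1* and *cpl-1* were 2.37, 2.54, 2.77, 4.21, 5.45 and 2.17. Then 8 members of the list were called, and without a *daf-2(rf)* library 1 (replicate 1), 3 (replicate 2) and 1 (replicate 3) were. *F57F5.1*, annotated with the same cysteine protease domain but not on the list, was called as well (log2 fold change 3.89, edgeR adjusted p = 0.0239) and was chosen after its values were seen.

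Of 8 lysozyme and saposin-like genes tested, 5 were called higher and none lower (median log2 fold change 3.08). *ilys-5*, an invertebrate-type lysozyme, had 596, 339 and 48 reads in the double mutant and 0 reads in every *daf-2(rf)* library. If 3 reads per library are allowed for a count of 0, the double mutant mean was at least 311-fold higher. Without replicate 1 of the double mutant its mean was at least 76.1-fold higher. These bounds cover the 0 counts alone, and the double mutant samples themselves ranged from 5.55 to 152 CPM. *lys-4* and *lys-1*, lysozymes of the protist type, were called with log2 fold changes of 4.83 and 3.30. *lys-4* had 0, 10 and 0 reads in the *daf-2(rf)* samples, so the reads in that group came from replicate 2 alone. *spp-5* and *spp-16*, saposin-like proteins, followed with 5.24 and 2.87, and *spp-5* was at 17.1, 1.99 and 1.97 CPM in the double mutant, against 0.0766, 0.203 and 0.204 CPM in *daf-2(rf)*. Without replicate 1 of the double mutant, the log2 fold changes of *spp-5*, *lys-1* and *spp-16* were 3.44, 2.22 and 2.09. In 4 of the 5 called genes replicate 1 of the double mutant was the highest, and 3 genes of the list were called without it.

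C-type lectins bind carbohydrates, and many of them are induced by pathogens in the worm gut. Of 23 members tested, 8 were called higher and none lower (median log2 fold change 2.01), with 20 positive and 3 negative values. The most abundant member, *clec-222*, had a log2 fold change of -0.77 without a call. The summed level of all 265 genes of the list overlapped, at 2767, 3437 and 9304 CPM in the double mutant, against 4079, 11147 and 8582 CPM in *daf-2(rf)*. *clec-87* was the most even, at 62.9, 56.99 and 43.6 CPM in the double mutant, against 8.43, 5.96 and 7.23 CPM in *daf-2(rf)*. For *clec-87* the log2 fold change was 2.92 ± 0.40 (edgeR adjusted p = 0.0202) and stayed between 2.74 and 3.06 with any 1 sample left out. *clec-63* was at 62.1, 25.7 and 10.3 CPM in the double mutant, against 0.843, 2.84 and 0.459 CPM in *daf-2(rf)* (log2 fold change 4.56 ± 0.83). The spread within the double mutant was wide here, and the groups did not overlap, as in every called gene. *clec-3* had 19, 11 and 17 reads in the double mutant, against 0, 2 and 0 reads in *daf-2(rf)*, and the ratio of the pooled reads per library size was 41.9 (exact 95% interval 10.98 to 356.3, counting error only). *clec-65*, *clec-85*, *clec-88*, *clec-91* and *clec-150* were the remaining calls, with log2 fold changes between 1.90 (*clec-88*) and 4.36 (*clec-85*). Without replicate 1 of the double mutant, the log2 fold changes of *clec-63*, *clec-85*, *clec-91* and *clec-150* were 3.67, 2.55, 1.92 and 2.24, and 6 lectins were called. Without replicate 2 or 3 of it 9 and 4 were called, and 0 without any 1 *daf-2(rf)* library.

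Markers of the intestine moved with these families. Of the 12 intestine markers tested, 6 were called higher and none lower, and all 12 had a positive log2 fold change (median 1.98). Without the double mutant libraries in turn, 3, 7 and 5 members were called, and 0, 1 and 0 without the *daf-2(rf)* libraries. Of those 6, *cpr-1* and *asp-1* are also on the protease list. The others were *mtl-2*, a metallothionein, *act-5*, the actin of intestinal microvilli, *ifb-2*, an intermediate filament protein of the gut lining, and the yolk protein gene *vit-1*. *act-5* was at 92.1, 21.4 and 9.83 CPM in the double mutant, against 1.69, 4.88 and 4.08 CPM in *daf-2(rf)*. From 3.51 with all samples, its log2 fold change came to 2.07 without replicate 1 of the double mutant and was no longer called (edgeR adjusted p = 0.067). *mtl-2* had 46, 24 and 26 reads in the double mutant, against 1, 0 and 0 reads in *daf-2(rf)*, and the ratio of the pooled reads per library size was 171.3 (exact 95% interval 30.01 to 6834, counting error only). Without replicate 1 of the double mutant the ratio for *mtl-2* was 104.6 (exact 95% interval 17.93 to 4212). All 20 genes of the list had reads, and their sum was 1498, 387 and 1036 CPM in the double mutant, against 336, 488 and 298 CPM in *daf-2(rf)*. The sums overlapped, since replicate 2 of the double mutant lay within the *daf-2(rf)* range. *elt-2*, the transcription factor that defines the intestine, was near 0 in both groups, with 0, 4 and 2 reads in the double mutant and 0, 2 and 1 reads in *daf-2(rf)*. The part of gut cells or free gut RNA in the protease, lysozyme and lectin differences was not tested beyond these values, and in sorted bulk samples more cells of a type and more RNA per cell cannot be told apart.

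Genes that act on fats were found among the higher ones, too. *fat-2*, the delta-12 fatty acid desaturase, was at 86.7, 17.8 and 54.4 CPM in the double mutant, against 6.44, 6.23 and 6.22 CPM in *daf-2(rf)*. The *daf-2(rf)* samples hardly differed, and the log2 fold change was 3.06 ± 0.56 (edgeR adjusted p = 0.0245). *elo-2*, a fatty acid elongase, was called with 2.39. These were 2 of the 23 genes of fatty acid synthesis and oxidation tested (none lower, median 1.04), against 2.26% called higher among all genes tested. Without the double mutant libraries in turn, 1, 4 and 2 members were called, and 0 without any 1 *daf-2(rf)* library. Without replicate 1 of the double mutant the log2 fold changes of *fat-2* and *elo-2* were 2.46 and 1.78. Chosen after their values were seen were the retinol- and fatty acid-binding protein genes *far-1* and *far-2*, the lipid-binding protein gene *lbp-2* and the lysosomal lipase gene *lipl-5*. Their log2 fold changes were 2.17, 2.55, 2.32 and 2.47. The deposited annotation assigns 5 of the genes tested to the class 3 lipase domain, which was picked after its calls were seen, and 3 were called higher. Among them, *B0035.13* was at 89.5, 38.5 and 70.1 CPM in the double mutant, against 6.36, 11.8 and 13.2 CPM in *daf-2(rf)*. *T21H3.1* was at 106, 11.2 and 9.02 CPM in the double mutant, against 0.690, 1.35 and 1.43 CPM in *daf-2(rf)*, with replicate 1 of the double mutant far above the other 2. Its log2 fold change was 5.14, and 3.04 without replicate 1. *ftn-2*, which encodes an iron-storing ferritin heavy chain, was called as well (log2 fold change 3.37, edgeR adjusted p = 0.0332), with 2.22 without replicate 1 of the double mutant. *ftn-2* was chosen after its values were seen.

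**Figure D2:**
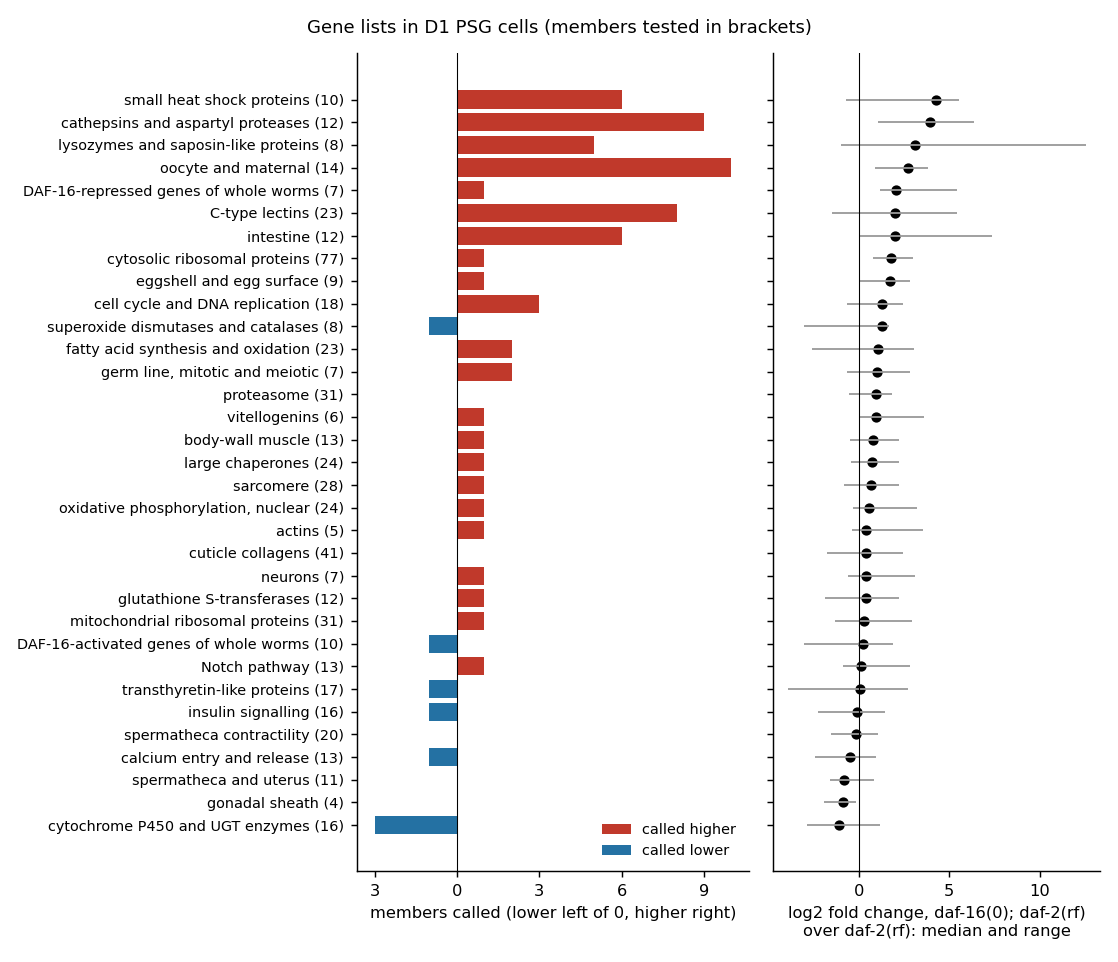
For each gene list, the left panel gives the number of members called lower (left of 0) and higher (right of 0) in *daf-16(0); daf-2(rf)*, and the right panel gives the median (point) and range (line) of the log2 fold changes of its tested members. The lists with any call and 5 lists without calls are shown, with small heat shock proteins and proteases at the top (medians 4.25 and 3.92) and cytochrome P450 and UGT enzymes at the bottom (median -1.11).

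The small heat shock protein genes of the *hsp-16* family encode chaperones that hold unfolded proteins and are among the strongest heat-inducible genes of the worm. All 6 *hsp-16* genes tested were called higher. *hsp-16.2* was at 231, 673 and 339 CPM in the double mutant, against 27.2, 13.5 and 10.2 CPM in *daf-2(rf)*, for a log2 fold change of 4.61 ± 0.65 (edgeR adjusted p = 0.0202). *hsp-16.41* was at 349, 2261 and 1037 CPM in the double mutant, against 111.5, 60.1 and 55.2 CPM in *daf-2(rf)*, with a log2 fold change of 4.01. *hsp-16.11* was at 8.95, 257 and 104 CPM in the double mutant, against 2.15, 2.23 and 3.62 CPM in *daf-2(rf)*, with a log2 fold change of 5.52. Here replicate 1 of the double mutant was the lowest of the 3 for all 6 genes, the opposite of its place in the protease list. Without it the log2 fold changes of *hsp-16.2* and *hsp-16.11* were 4.83 and 5.99. Without the double mutant libraries in turn, 6, 6 and 5 genes of the small heat shock protein list were called. Without the *daf-2(rf)* libraries in turn, 1, 0 and 0 were. *hsp-16.1* and *hsp-16.11*, and likewise *hsp-16.48* and *hsp-16.49*, are near-identical copies, and how the reads were split between the copies is uncertain.

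The other 4 small heat shock proteins tested were not called. *hsp-12.3* and *hsp-25* had log2 fold changes of -0.72 and -0.04, *hsp-43* of 0.10 and *sip-1* of 1.52. Of 24 large chaperones tested, 1 was called, *hsp-6*, the mitochondrial HSP70, at 20.97, 21.01 and 35.3 CPM in the double mutant, against 6.51, 6.91 and 5.50 CPM in *daf-2(rf)* (log2 fold change 2.03 ± 0.39, edgeR adjusted p = 0.0264). The median of the 24 was 0.69. The heat-inducible HSP70 genes *F44E5.4* and *F44E5.5* (log2 fold changes 1.97 and 1.88) and the HSP90 gene *daf-21* (2.19) were not called, nor was *hsf-1*, the heat shock transcription factor gene (0.70).

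**Figure D3:**
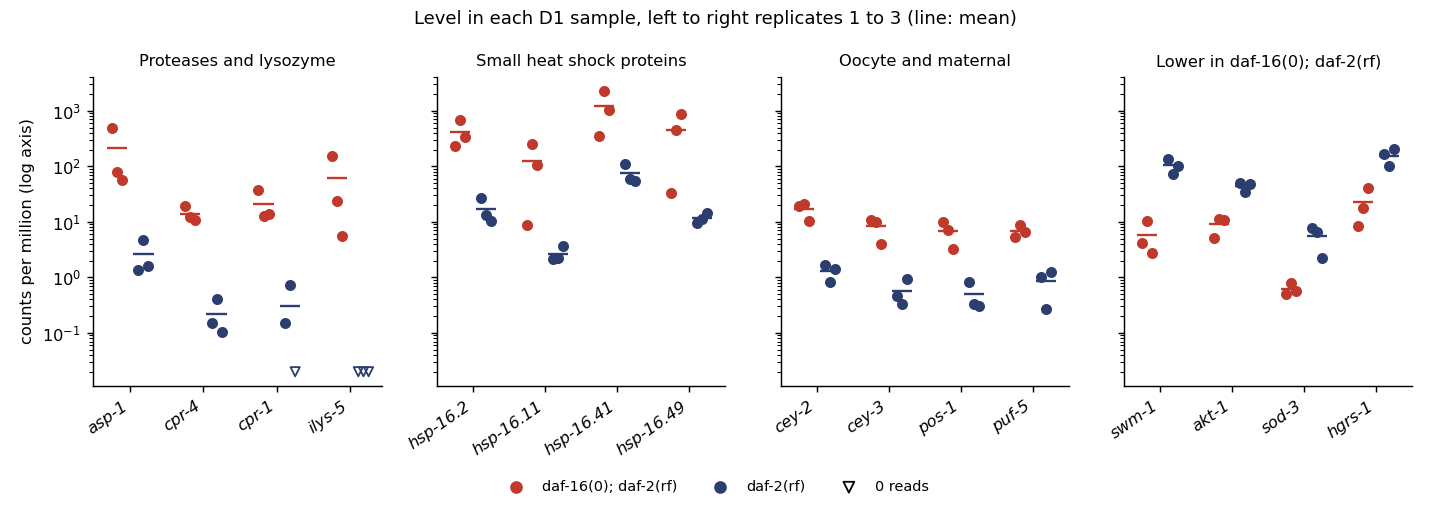
Levels of 16 genes in each D1 sample, in CPM on a log axis, with *daf-16(0); daf-2(rf)* left of *daf-2(rf)* for each gene, replicates 1 to 3 in order, and a line at the mean. The groups did not overlap for any of the genes, replicate 1 of the double mutant was highest for *asp-1* and *ilys-5* and lowest for the *hsp-16* genes, and open triangles mark samples with 0 reads.

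Oocyte and maternal genes formed the list with the most calls. Of 14 members tested, 10 were called higher and none lower, with a median log2 fold change of 2.69. They encode RNA-binding and storage proteins of growing oocytes (*oma-1*, *oma-2*, *cey-2*, *cey-3*, *puf-5*, *puf-11*), determinants of the early embryo (*pos-1*, *spn-4*, *nos-2*) and the yolk receptor (*rme-2*). *cey-2* was at 19.4, 21.2 and 10.5 CPM in the double mutant, against 1.69, 0.813 and 1.43 CPM in *daf-2(rf)* (log2 fold change 3.69 ± 0.48, edgeR adjusted p = 0.0202). *puf-5* was at 5.37, 8.69 and 6.59 CPM in the double mutant, against 0.996, 0.271 and 1.27 CPM in *daf-2(rf)*, with a log2 fold change of 3.01. The summed level of all 19 genes of the list was nearly the same in the 3 double mutant samples, at 120, 127 and 108 CPM, against 20.5, 17.7 and 21.96 CPM in *daf-2(rf)*. Unlike the intestine sum, this sum did not overlap between the groups. Without the double mutant libraries in turn, 7, 6 and 4 members were called, and 2, 0 and 0 without the *daf-2(rf)* libraries.

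Other germ line genes followed in part. Of 7 mitotic and meiotic germ line genes tested, 2 were called, *pgl-1*, a core protein of P granules (log2 fold change 2.25), and *sygl-1*, a target of GLP-1/Notch in germline stem cells (2.79). *sygl-1* had 16, 26 and 19 reads in the double mutant, against 8, 3 and 6 reads in *daf-2(rf)*, so both groups were near the limit of detection. Neither was called without replicate 1 of the double mutant (edgeR adjusted p = 0.0708 for *pgl-1* and 0.0584 for *sygl-1*) or without its replicate 3. *glp-1*, which encodes the Notch receptor of the germ line, was at 34.5, 48.4 and 69.9 CPM in the double mutant and at 53.6, 135 and 54.1 CPM in *daf-2(rf)* and was not called. The summed level of the 18 germ line genes overlapped, at 152, 151 and 154 CPM in the double mutant and 98.5, 169 and 98.7 CPM in *daf-2(rf)*. Without *glp-1*, its most abundant member, the sum did not overlap, at 117.1, 102.7 and 84.4 CPM in the double mutant, against 44.8, 34.3 and 44.6 CPM in *daf-2(rf)*. Chosen after their values were seen were *deps-1*, a P granule protein gene (3.53), *iff-1*, the germline copy of eIF5A (3.43), *puf-3*, a Pumilio-family repressor gene (3.30), and *rnp-8*, which encodes an oocyte RNA-binding protein (3.18). Their values in brackets are log2 fold changes, and all 4 were called. Of 18 cell cycle and DNA replication genes, 3 were called higher: *cyb-3*, a cyclin B3 gene, *rnr-2*, a ribonucleotide reductase gene, and *pcn-1*, the PCNA gene, with 2.41, 2.17 and 2.08. Of 56 sperm genes, 3 passed the filter and 0 were called by edgeR, 0 by DESeq2 and 0 at an unadjusted p under 0.05. All 19 oocyte genes had reads in these sorted cells, and the part of oocytes, embryos or their RNA in the differences was not tested.

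**Figure D4:**
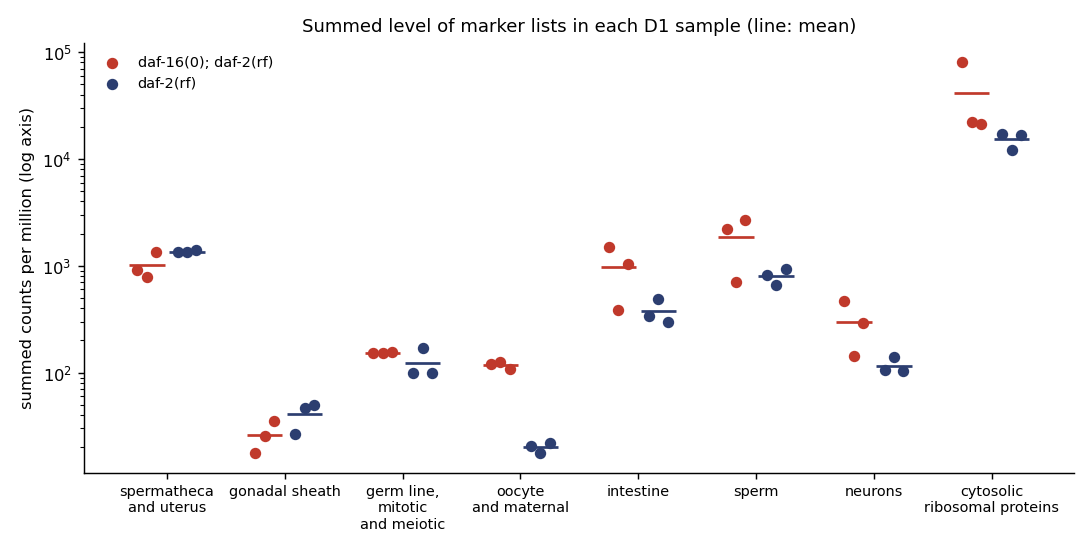
Summed level of 8 gene lists in each D1 sample, in CPM on a log axis, with *daf-16(0); daf-2(rf)* left of *daf-2(rf)* and a line at the mean of 3 samples. Oocyte and maternal genes sum to 108 to 127 CPM in the double mutant, against 17.7 to 21.96 CPM in *daf-2(rf)*. The neuron and cytosolic ribosomal protein lists do not overlap either, while the spermatheca and uterus, gonadal sheath, germ line, intestine and sperm lists do.

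All 77 cytosolic ribosomal protein genes tested had a positive log2 fold change, between 0.76 and 2.98, with a median of 1.78. In 34 of the 77 the groups did not overlap, against 15.9% of all genes tested in that direction. By edgeR 1 of them was called, DESeq2 called 15, and 64 had an unadjusted p under 0.05. The edgeR call was *rpl-11.1*, at 11.3, 14.7 and 6.82 CPM in the double mutant, against 2.22, 0.542 and 2.19 CPM in *daf-2(rf)* (log2 fold change 2.72, edgeR adjusted p = 0.0332), and it was lost without replicate 1 of the double mutant (edgeR adjusted p = 0.0551). The sum over the list was 80439, 22411 and 21454 CPM in the double mutant, against 16947, 12073 and 16877 CPM in *daf-2(rf)*. Replicate 1 of the double mutant had by far the highest sum, and the other 2 double mutant samples were still above every *daf-2(rf)* sample. Translation factors (24 tested, median 0.70), proteasome subunits (31 tested, median 0.96) and nuclear genes of oxidative phosphorylation (24 tested, median 0.54) gave 0, 0 and 1 calls in edgeR. At an unadjusted p under 0.05 there were 4 translation factors and 14 proteasome subunits, and DESeq2 called 1 of each. The call among the genes of oxidative phosphorylation was *ucr-2.3*, a subunit of complex III, with 17, 49 and 21 reads in the double mutant, against 9, 3 and 4 reads in *daf-2(rf)*.

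Single genes of muscle and nerve cells were called as well. *mup-2*, the troponin T of body-wall muscle and the gonadal sheath, was at 85.9, 30.9 and 32.3 CPM in the double mutant, against 13.3, 8.396 and 12.07 CPM in *daf-2(rf)*. It was the only call among 13 body-wall muscle genes, and *unc-27*, a troponin I gene, had a log2 fold change of 2.204 without a call. *sbt-1* encodes the 7B2 chaperone of a neuropeptide-processing convertase and was at 144, 26.5 and 106 CPM in the double mutant, against 10.3, 14.8 and 7.69 CPM in *daf-2(rf)*. It was 1 of 7 neuronal genes tested and the only one called by edgeR (log2 fold change 3.07, edgeR adjusted p = 0.0305). DESeq2 called 3 of the 7, and 3 did not overlap with higher and 2 with lower levels in the double mutant. The sum of all 18 neuron genes was 463, 142 and 292 CPM in the double mutant, against 106, 139 and 104 CPM in *daf-2(rf)*. These sums did not overlap, but without *snb-1*, the most abundant member, they did (290, 98.3 and 202 CPM, against 69.5, 103 and 69.2 CPM). Neither *mup-2* nor *sbt-1* was called without replicate 1 of the double mutant (edgeR adjusted p = 0.062 and 0.053). *nlp-2*, a neuropeptide-like protein gene, had 143, 15 and 34 reads in the double mutant, against 5, 2 and 5 reads in *daf-2(rf)*, with a log2 fold change of 5.66, which was 3.15 and no longer called without replicate 1 of the double mutant (edgeR adjusted p = 0.0547).

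Among the genes that mark the PSG itself, edgeR made 0 calls. Of 11 spermathecal and uterine markers tested, 8 had a negative log2 fold change and 5 did not overlap with lower levels in the double mutant, against 16.3% of all genes tested, and the median was -0.85. DESeq2 called 1 of the 11, and 4 had an unadjusted p under 0.05. *fln-1*, the filamin that spermathecal cells need to contract, was at 213, 324 and 526 CPM in the double mutant, against 672, 603 and 637 CPM in *daf-2(rf)*. With a log2 fold change of -0.85 ± 0.50 *fln-1* was not called (edgeR adjusted p = 0.309). *nmy-1*, a non-muscle myosin heavy chain of the contractile cells, was at 1625, 1196 and 2112 CPM in the double mutant, against 6221, 1799 and 6717 CPM in *daf-2(rf)* (log2 fold change -1.58, edgeR adjusted p = 0.166). The groups did not overlap for *fln-1*, whereas *daf-2(rf)* replicate 2 lay within the double mutant range for *nmy-1*. The 20 genes of spermathecal contractility tested, the 18 of apical junctions, the 17 of basement membranes and the 8 innexins gave 0 calls in edgeR, with medians of -0.16, -0.48, 0.03 and 0.04. DESeq2 called 2, 0, 1 and 0 of them, and 5, 4, 2 and 0 had an unadjusted p under 0.05. Of 13 genes of calcium entry and release, *unc-2*, a subunit of a voltage-gated calcium channel, was called lower, at 1.02, 1.85 and 0.578 CPM in the double mutant, against 5.75, 10.02 and 3.72 CPM in *daf-2(rf)* (log2 fold change -2.42). Without replicate 1 of the double mutant it was -2.40 and not called (edgeR adjusted p = 0.0783).

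Among the genes called lower was 1 of the 16 insulin signalling genes tested. *akt-1*, a kinase that phosphorylates DAF-16, fell to 5.11, 11.3 and 10.9 CPM in the double mutant, against 49.9, 34.1 and 48.0 CPM in *daf-2(rf)*. The groups were well apart, with a log2 fold change of -2.25 ± 0.43 (edgeR adjusted p = 0.0264). Its partners in the same step had negative values without a call, *pdk-1* with -1.53 and *akt-2* with -1.08, and the median of the 16 genes was -0.12. Of the 16, which include *daf-16*, 6 did not overlap with lower and 1 with higher levels in the double mutant, against 16.3% and 15.9% of all genes tested. DESeq2 called 3, and 7 had an unadjusted p under 0.05. In edgeR, 1 member was called without any 1 double mutant library, and 0 without any 1 *daf-2(rf)* library. Insulin-like peptide genes were hardly detected, with 2 of 40 tested. *ins-17* was one of them, at 24.5, 1.42 and 4.86 CPM in the double mutant and at 2.99, 3.66 and 2.45 CPM in *daf-2(rf)*, and it was not called.

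*sod-3*, the mitochondrial superoxide dismutase gene known as a direct target of DAF-16, was the only call among 10 tested genes that DAF-16 activates in whole worms. It fell to 0.511, 0.784 and 0.578 CPM in the double mutant, against 7.89, 6.57 and 2.24 CPM in *daf-2(rf)* (log2 fold change -3.07 ± 0.60, edgeR adjusted p = 0.0264). These levels were low, with at most 11 reads in a double mutant library. The 10 genes had a median of 0.23, with 5 positive and 5 negative. The trehalose synthase gene *tps-1* (-1.06) and the catalase gene *ctl-2* (1.64) lay on opposite sides of zero without a call. Among 7 tested genes that DAF-16 represses in whole worms, all had positive values (median 2.03). They are not independent of the lists above, since *vit-2* and *vit-5* are also intestine markers and *lys-2* is on the lysozyme list. *dod-24*, an innate immunity gene, was the call, at 28.6, 16.3 and 7.06 CPM in the double mutant, against 0, 0.880 and 0.306 CPM in *daf-2(rf)* (log2 fold change 5.39, and 4.79 without replicate 1 of the double mutant). *dod-6*, another gene downstream of DAF-16, was on neither list and was called lower with -2.44. It was chosen after its values were seen.

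*swm-1*, which encodes a trypsin inhibitor known for blocking premature sperm activation, fell to 4.09, 10.3 and 2.78 CPM in the double mutant, against 137, 73.4 and 102 CPM in *daf-2(rf)*. The log2 fold change was -4.15 ± 0.60 (edgeR adjusted p = 0.0202), and it was called in 4 of 6 fits with 1 sample left out. The deposited annotation gives *swm-1* the trypsin inhibitor-like domain. Of 6 genes with this domain tested, 3 were called lower, the others being *B0238.12* (-5.25) and *C25E10.8* (-1.73). The domain was picked after its calls were seen, so its share of calls is a description only. *C25E10.8* was at 28.4, 25.1 and 28.9 CPM in the double mutant, against 106, 100.1 and 66.3 CPM in *daf-2(rf)*. *ttr-26*, a transthyretin-like protein gene, was the call among 17 of its family and fell to 1.02, 0.855 and 0.578 CPM in the double mutant, against 8.12, 22.4 and 6.47 CPM in *daf-2(rf)* (log2 fold change -3.94). *D1086.7*, a gene without a known role, was the most abundant gene among those called lower that are named here, at 34.3, 241 and 58.9 CPM in the double mutant, against 1086, 1021 and 1493 CPM in *daf-2(rf)* (log2 fold change -3.43).

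Enzymes of detoxification were lower in part. Of 16 cytochrome P450 and UGT genes tested, 3 were called lower and none higher, and the median was -1.11. *cyp-34A6* was at 3.07, 3.85 and 4.51 CPM in the double mutant, against 17.2, 23.97 and 16.9 CPM in *daf-2(rf)* (log2 fold change -2.33 ± 0.39, edgeR adjusted p = 0.0202). *cyp-35C1* and *ugt-49* were called with -2.59 and -2.69, and both had 1 read in replicate 1 of the double mutant. *sqrd-1*, the sulfide quinone oxidoreductase that clears hydrogen sulfide, fell to 0.511, 1.42 and 1.27 CPM in the double mutant, against 6.05, 18.8 and 10.5 CPM in *daf-2(rf)* (log2 fold change -3.35). In the other direction, *gst-27* was the call among 12 glutathione S-transferases, with 2.06.

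Several genes of endosomal sorting were called lower, and this group was put together after the values were seen. *hgrs-1*, the ESCRT-0 subunit that sorts ubiquitinated cargo, fell to 8.44, 18.1 and 41.4 CPM in the double mutant, against 165, 103 and 201 CPM in *daf-2(rf)* (log2 fold change -2.78). *snx-27*, a sorting nexin of endosomal recycling, was at 3.07, 9.55 and 10.1 CPM in the double mutant, against 30.4, 27.2 and 35.8 CPM in *daf-2(rf)*. *amph-1*, the amphiphysin that shapes recycling membranes, was called with -1.92, and *tag-77*, which like *hgrs-1* carries a FYVE domain, with -2.47. These were the 2 of 12 FYVE-domain genes tested that were called, and the domain's median was -0.86. All 4 genes had their lowest level in replicate 1 of the double mutant. Other called genes with a known role were *ets-10*, a transcription factor gene (-3.36), and, chosen after their values were seen, *ksr-1*, a scaffold of Ras signalling (-1.73), and *henn-1*, which methylates small RNAs (-2.49). Of 51 nuclear hormone receptor genes tested, *nhr-44* was called (-3.04), with 1, 5 and 1 reads in the double mutant, against 28, 42 and 31 reads in *daf-2(rf)*. *nhr-44* was likewise chosen after its values were seen.

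Neighbouring genes on chromosome IV had no reads at all in the double mutant. *B0546.3* (IV, 3378791 to 3382834, minus strand, WBcel235) had 0 reads in all 3 *daf-16(0); daf-2(rf)* samples, against 23, 29 and 40 reads in *daf-2(rf)*. *B0546.4* (IV, 3382960 to 3384147, minus strand) had 0 reads in the double mutant, against 94, 151 and 138 reads in *daf-2(rf)*. *mai-2* (IV, 3385638 to 3386907, plus strand), an inhibitor of the mitochondrial ATPase, had 0 reads in the double mutant, against 82, 48 and 47 reads in *daf-2(rf)*. All 3 genes were called lower. Against the *daf-2(rf)* mean, the levels in the double mutant were at least 4.34-fold, 18.4-fold and 8.98-fold lower. Without replicate 1 of the double mutant, the shallowest library, these bounds were 6.85-fold, 29.1-fold and 14.2-fold. The pattern was the same on D7, where each had 0 or 1 reads in every *daf-16(0); daf-2(rf)* library and between 26 and 268 reads in the *daf-2(rf)* libraries. *otub-4*, next to *B0546.3*, kept 8, 24 and 8 reads in the double mutant, against 92, 63 and 127 reads in *daf-2(rf)*. The gene beyond it, *vha-19*, a subunit of the vacuolar ATPase, had a log2 fold change of 0.16 without a call. On the other side the next protein-coding gene with more than 10 reads in any D1 library was *pdhb-1* (from 3399670), with 11, 132 and 81 reads in the double mutant and 64, 44 and 69 reads in *daf-2(rf)*. Whether the 2 strains differ in the DNA of this interval was not tested.

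Many called genes have a sequence name alone. Among the 12 calls with the lowest adjusted p, *C18D4.12* was at 39.4, 16.3 and 31.8 CPM in the double mutant, against 2.07, 3.45 and 1.83 CPM in *daf-2(rf)*. *R11A5.3* was at 29.9, 67.0 and 32.6 CPM in the double mutant, against 6.21, 3.99 and 2.70 CPM in *daf-2(rf)*. The groups did not overlap for either, as in every called gene, and the log2 fold changes were 3.56 and 3.33 (edgeR adjusted p = 0.0202 each). *F35E12.10* was lower, at 1.02, 4.203 and 4.28 CPM in the double mutant, against 22.5, 38.5 and 33.9 CPM in *daf-2(rf)* (log2 fold change -3.25, edgeR adjusted p = 0.0202). *C17F4.7* and *lec-8*, which encodes a galectin, were chosen after their values were seen. *C17F4.7* was at 301, 194 and 235 CPM in the double mutant, against 19.4, 40.6 and 11.9 CPM in *daf-2(rf)*. *lec-8* was at 92.1, 55.3 and 40.8 CPM in the double mutant, against 3.99, 12.19 and 2.75 CPM in *daf-2(rf)*. *F46A8.7* had a wide spread in both groups, at 184, 14.3 and 439 CPM in the double mutant, against 1.46, 9.07 and 1.22 CPM in *daf-2(rf)* (log2 fold change 5.76 ± 1.25).

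The calls were spread over all 6 nuclear chromosomes. Chromosome V held 44 higher and 28 lower calls, which is 6.84% of the 1052 genes tested there, and the lowest share of a nuclear chromosome was 2.01% of 1143 genes on III. All 6 *hsp-16* genes, the proteases *asp-1*, *asp-2*, *asp-5*, *asp-6*, *cpr-1*, *cpr-4* and *cpr-5*, and *swm-1* lie on V, and several of them are close copies of each other. Of the 14 mitochondrial genes tested, edgeR called 0, DESeq2 called 0, and 1 had an unadjusted p under 0.05. Most calls, 221, were protein-coding genes. The rest were 2 pseudogenes and 3 non-coding RNA genes, *linc-21*, *linc-41* and *linc-45*, all called higher.

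The D1 differences were then set beside those of the same genotypes on D7, which come from other samples. Of the 226 genes, 192 were tested on D7. Of these, 84 of 114 genes higher on D1 and 52 of 78 genes lower on D1 had the same sign on D7, which is 70.8% together. Of all 6267 genes tested at both ages, 43.3% had the same sign. On D7, 91 of 7933 genes tested (1.15%) were called, and 12 of them were among the 226. The direct test of the difference between the ages was passed by 57 of 8096 genes (0.704%), of which 19 were among the 226 D1 calls. For all other D1 calls a difference between the ages was not shown, which does not make the 2 ages alike.

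The gene groups differed in their D7 values. All 9 called proteases were positive on D7, where the list's median was 2.51, and *cpr-4* and *asp-6* were called again, with 3.05 and 3.01. The C-type lectin list had a D7 median of 3.05 with 3 calls, and the intestine list one of 3.15. Oocyte and maternal genes had a D7 median of -0.69 and no call, and cytosolic ribosomal protein genes one of -1.02. For *cey-2* the log2 fold change was -1.56 on D7, and the ages differed by 5.17 (edgeR adjusted p = 0.0426). The median of the small heat shock proteins was -0.66 on D7, and for *hsp-16.2* the ages differed by 5.23 (edgeR adjusted p = 0.046), with a log2 fold change of -0.72 on D7. On D7 *hsp-16.2* was at 319, 311 and 195 CPM in the double mutant, against 165, 226 and 964 CPM in *daf-2(rf)*. Replicate 3 of *daf-2(rf)* was also the highest D7 sample for *hsp-16.11*, *hsp-16.48* and *hsp-16.49*. The D7 values were not computed without it. The other *hsp-16* genes did not pass the test of the age difference. *swm-1* and *ttr-26* were called lower at both ages, with -3.73 and -4.20 on D7. *cyp-34A6*, at -0.19 on D7, and *snx-27*, at 0.67 on D7, differed between the ages (edgeR adjusted p = 0.0462 each).

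**Figure D5:**
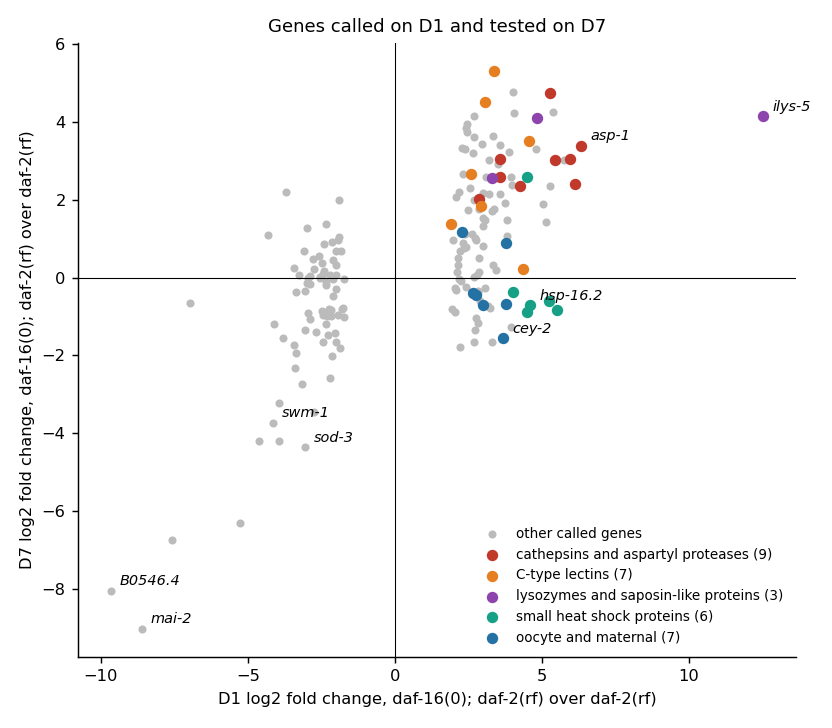
The 192 genes called on D1 and tested on D7, with the log2 fold change of *daf-16(0); daf-2(rf)* over *daf-2(rf)* on D1 (horizontal axis) and D7 (vertical axis), coloured by gene list. Proteases, lectins and lysozymes lie above zero at both ages, while 5 of 6 *hsp-16* genes and 5 of 7 oocyte and maternal genes lie below zero on D7. For *hsp-16.2*, replicate 3 of *daf-2(rf)* was by far the highest D7 sample.

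Of the ligands and targets of GLP-1/Notch that bear on the germ line progenitor pool, *dos-3*, a non-canonical Notch ligand gene, did not pass the filter on D1. It had 0 reads in all 3 *daf-16(0); daf-2(rf)* samples, against 7, 16 and 5 reads in *daf-2(rf)*. Against the *daf-2(rf)* mean, the double mutant was at least 1.41-fold lower (2.23-fold without its replicate 1). *apx-1*, a canonical ligand gene, was at 15.6, 6.05 and 12.26 CPM in the double mutant and at 3.68, 6.70 and 3.67 CPM in *daf-2(rf)*, and its log2 fold change of 1.25 was not called. *lag-2*, another canonical ligand gene, had at most 4 reads in any D1 sample. Of the 13 Notch pathway genes tested, *sygl-1* was the one called, while *lst-1*, the other stem cell target, was at 4.35, 4.27 and 4.51 CPM in the double mutant and at 1.99, 2.03 and 2.70 CPM in *daf-2(rf)* (log2 fold change 0.96, edgeR adjusted p = 0.173).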

How the data were processed

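RNA from FACS-sorted GFP+ cells was amplified with a SMARTer Ultra Low kit and sequenced as paired-end reads. The authors aligned the reads to WBcel235 with HISAT2 2.0.5 and counted them per gene with featureCounts 1.5.0-p3. The deposited counts were used as whole numbers without normalization. The deposited FPKM values were not used. A strand setting is not given in the sources used here, so overlapping and antisense genes cannot be separated.

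Genes that exceeded 10 reads in each of the 3 replicates of either D1 group entered edgeR 4.0.16 (R 4.3.3), with TMM factors, the quasi-likelihood F test and Benjamini-Hochberg adjustment over all genes tested. Calls needed an adjusted p under 0.05 and a log2 fold change of 1 or more in size. Standard errors were back-calculated from the F statistic. CPM used TMM-scaled library sizes. The D7 groups were fitted in the same way, and the difference between the ages was tested in a fit of all 12 libraries without a fold change threshold. A count of 0 was taken to allow 3 reads per library. The other group entered such a fold with its mean, whose spread is not covered. Intervals and such floors cover counting error only.

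Of the lists, 11 stand for tissues and 35 for processes, and 15 of their names had no row in the table, among them nearly all genes of the mitochondrial DNA list, which was not used. By rule, named genes were those central to the study, up to 8 called members of each list with the largest change (or the member with the most reads), the 12 largest changes in each direction and the 12 lowest adjusted p, and a selection of these is printed. Other genes were chosen after their values were seen, and not all of them are marked in the text. Among these are *elt-2*, *otub-4*, *vha-19*, *ftn-2*, *T21H3.1*, *B0035.13*, *C25E10.8*, *nhr-44*, *ksr-1* and *henn-1*. The members and lists were chosen with earlier results of these data known. Alternatives were DESeq2 1.42.0 (Wald test), its size factors in edgeR, upper-quartile factors, the removal of the 20 most abundant genes, other filters, a replicate block, a joint fit of the 12 libraries and the omission of single libraries. The test steps were also checked on simulated counts. These held no outlying library, so the check does not bear on how far the calls rest on single samples.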

Additional observations from a re-analysis of the deposited data

Results flagged for a closer look

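In 7 of the genes named here the genotype difference itself differed between D1 and D7 in the edgeR fit of all 12 samples (adjusted p between 0.0426 and 0.0462). The values are the D1 log2 fold change minus the D7 log2 fold change, both of *daf-16(0); daf-2(rf)* over *daf-2(rf)*. The difference was 5.23 for *hsp-16.2*, 5.17 for *cey-2*, 4.94 for *puf-3*, 4.41 for *cey-3* and 3.99 for *rpl-11.1*, whose log2 fold changes were positive on D1 and negative on D7. It was -2.75 for *snx-27* and -2.196 for *cyp-34A6*, which were called lower on D1. *puf-3* and *snx-27* were chosen after their values were seen. The age differences were not computed with single samples left out. For *hsp-16.2*, replicate 3 of *daf-2(rf)* was by far the highest D7 sample, at 964 CPM, against 165 to 319 CPM in the others.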

How the results depend on the processing

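The main test called 226 genes, 145 higher and 81 lower. Counts of called genes (all, higher, lower) were 761, 406 and 355 with the Wald test of DESeq2, 861, 460 and 401 without a filter on low counts, 70, 44 and 26 with more than 10 reads required in every library, and 478, 240 and 238 with a replicate block. The filters also change how many genes are tested (18480 and 3919, against 6430). The cause of the other shifts was not tested. With all 12 libraries in 1 fit the counts were 218, 109 and 109. DESeq2 size factors gave 220, upper-quartile normalization 233 and the omission of the 20 most abundant genes 223. With 1 library left out, between 2 and 474 genes were called, between 1 and 301 higher and between 1 and 173 lower, and edgeR found fewest without a *daf-2(rf)* library. Same-numbered samples of the genotypes correlated with 0.373, 0.0397 and -0.0632 in their deviations. The mean was 0.116, against -0.0659 for different numbers. So few values cannot decide whether the numbers pair the samples, and the main test used no pairing.

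Values of genes that were not called changed sign around zero. The log2 fold change of *daf-2* was -0.12 without a filter, -0.18 with more than 10 reads in every library and -0.034 with the replicate block, and it ranged from -0.25 to 0.41 with 1 library left out. For *eef-1G* it was -0.16, -0.20 and, with all 12 libraries, -0.050 (-0.14 to 0.17 with 1 library left out). For *his-41* it was -0.0089 with more than 10 reads in every library (-0.026 to 0.34), and for *vha-19* -0.0043 without a filter and -0.040 with more than 10 reads in every library. With 1 library left out, *inx-8* ranged from -0.76 to 0.39, *ins-17* from -0.032 to 2.25 and *ctb-1* from -2.17 to 0.37. No gene called in the main test changed sign in any of these fits that gave it a value. Summed marker levels without the most abundant member, an alternative chosen after seeing the data, gave a ratio of *daf-16(0); daf-2(rf)* over *daf-2(rf)* of 2.46 for mitotic and meiotic germ line genes (1.25 with it), 1.5 for body-wall muscle genes (0.831), 1.42 for sperm genes (2.33) and 1.29 for hypodermal genes (2.15). The oocyte and intestine ratios were 6.54 (5.90 with it) and 2.91 (2.60).

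Precision was limited by 3 samples per group and by depth: 1 read was worth up to 0.256 CPM, and the median of the genes called higher lay under 1 CPM in *daf-2(rf)*. Folds against 0 reads are bounds for the 0 counts only. Computing those bounds without replicate 1 of *daf-16(0); daf-2(rf)* was decided after seeing the data. Amplification without molecular identifiers means that reads are not independent molecules. The promoter motif analysis that was planned was not run, since no sequence was used here.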
